A study of Mus musculus with 4 samples.

Results

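The cells described here were labelled type 1 conventional dendritic cells and chosen by their raw UMIs (unique transcript molecules) of a few genes, in single-cell libraries of spinal cord leukocytes. A member had at least 2 UMIs of Xcr1 and Clec9a together, at least 20 UMIs of Cd74, no Cd3e and fewer than 3 UMIs of Siglech. S100a8 and S100a9 together made up under 5% of its UMIs, and Ccr7 and Fscn1 did not both reach 3 UMIs. The rule found 486 members among 28598 retained cells. They are called Xcr1/Clec9a-gated cells below, because the data went against the cell type name in a large share of them, as described below.

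The study sorted CD45+ cells from spinal cords of C57BL/6 mice that had been given EAE (experimental autoimmune encephalomyelitis), in which immunised mice develop autoimmune inflammation of brain and spinal cord. The Reg1-MO group (2 libraries) received Reg1-MOs and the Ctrl group (2 libraries) received Ctrl MO. Every animal was immunised, was injected intracranially on day 9 after immunisation and gave its spinal cord on day 16, so there was no library without disease or without injection. Reg1 is read here as Regnase-1, the RNA-degrading protein of Zc3h12a, and MO as morpholino; the labels spell out neither. Nothing in the labels says how many animals a library holds or that the replicates were separate animals, so a p-value measures the spread between libraries, which may be technical.

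Type 1 conventional dendritic cells are a rare lineage that takes up dying cells and presents their antigens on MHC class I to CD8 T cells, a route called cross-presentation. Their development in mice depends on the transcription factors Irf8 and Batf3. Xcr1 is the receptor for the chemokine XCL1, Clec9a a receptor for the exposed actin of dead cells, Wdfy4 a protein needed for cross-presentation in mice, and Itgae the integrin chain CD103. Type 2 conventional dendritic cells, the sister lineage, mainly present antigen on MHC class II to CD4 T cells.

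The Reg1-MO libraries held 174552218 and 75472324 UMIs and the Ctrl libraries 137995955 and 94577206. Members had a median of 21487 UMIs, against 10944.5 for all retained cells. Between 10 and 78 cell barcodes occurred in both libraries of a pair. Of the members, 6 had a barcode that also occurred in another library, and none of those barcodes was a member there. Neutrophils (cells with at least 5% of UMIs from S100a8 and S100a9) numbered 469 and 1031 in the Reg1-MO libraries, against 2047 and 2462 in the Ctrl libraries.

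The members were of 2 kinds. The summed share of UMIs from 19 monocyte and macrophage markers, genes such as Lyz2, Apoe and C1qa that phagocytes express strongly, separated them. A limit of 1% of UMIs, set after this split had been seen, gave 244 phagocyte-low and 242 phagocyte-high members. Near that limit, 59 members lay between 0.5% and 2%. Phagocyte-low members had a median of 7 gate UMIs (Xcr1 plus Clec9a), and 30.7% of them had no Xcr1. Phagocyte-high members had a median of 2 gate UMIs, and 93.8% had no Xcr1. Flt3, the growth factor receptor of the dendritic cell lineage, was detected in 86.5% of phagocyte-low and 11.2% of phagocyte-high members, at medians of 17781 and 28649 UMIs. Doublet calls covered 1.23% of phagocyte-low and 7.44% of phagocyte-high members. By library, the phagocyte-high share was 12.2% and 0% in the Reg1-MO libraries, against 3.57% and 3.45% in the Ctrl libraries. The part of doublets in the split was not tested.

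**Figure D1:**
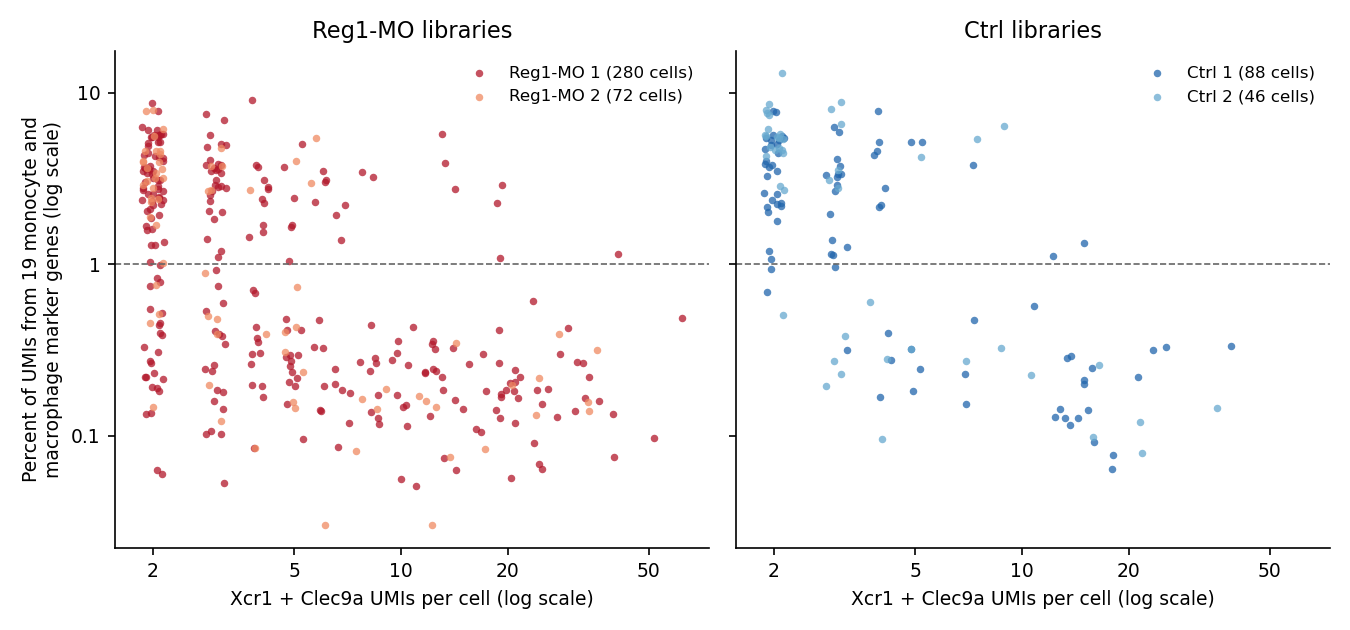
Each point is 1 member, with its Xcr1 plus Clec9a UMIs on the x axis (log scale, jittered sideways) and the percent of its UMIs from 19 monocyte and macrophage markers on the y axis (log scale). The dashed line is the 1% limit; cells drawn on the lower edge lie at or below its value. Members with 2 gate UMIs sit mostly above the line and members with 10 or more mostly below it, in both groups.

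The split followed the number of gate UMIs. Of the 167 members with exactly 2 gate UMIs, the lowest number the rule admits, 19.2% were phagocyte-low. The share was 36.0% of 86 members with 3 gate UMIs and 60.8% of 74 members with 4 to 5. It was 69.6% of 46 members with 6 to 9 and 92.0% of 113 members with 10 or more. Just outside the rule, 484 cells met every other condition with 1 gate UMI, and 10.95% of them were phagocyte-low. Median Wdfy4, a gene that neither the gate nor the 1% limit used, was 2 UMIs per cell at 2 gate UMIs and 40 UMIs per cell at 10 or more, against 1 UMI per cell in the cells with 1 gate UMI.

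A further 401 cells had 2 or more gate UMIs and failed another condition. Siglech, a plasmacytoid dendritic cell gene, excluded 246 of them and Cd3e, a T cell gene, 154; some failed more than 1 condition. At the Cd74 limit, 3 members had 20 to 24 UMIs and 5 cells with 15 to 19 UMIs fell outside.

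Clec9a UMIs were also counted in cells of other types. Phagocyte-marker cells were taken as cells with at least 1% of UMIs from the 19 markers and at least 20 UMIs of Cd74, and their 6421 cells include the 242 phagocyte-high members. Cells were thinned to 5000 UMIs, and cells with fewer were left out. This kept 6242 of the 6421 cells, and 6002 of the 6179 that were not members. Clec9a was then detected in 3.27% of the kept cells. It was detected in 1.699% of the kept non-members, which by the rule hold at most 1 gate UMI. By library, the non-members gave 2.01% and 1.37% in the Reg1-MO libraries, and 2.08% and 0.938% in the Ctrl libraries. T cells gave 2.30% and 0.352% in the Reg1-MO libraries, and 0.413% and 0.617% in the Ctrl libraries. Reg1-MO 1 thus stood apart among T cells, whose pooled share was 1.17% with it and 0.445% without it. Neutrophils gave 0.624%. Before thinning, the shares were 10.4% of phagocyte-marker cells (median 17482 UMIs) or 6.86% without the members, 2.98% of T cells (median 8035 UMIs) and 1.43% of neutrophils (median 7059 UMIs). Xcr1 after thinning was detected in 0.160% of phagocyte-marker cells, or 0.0167% without the members, and in 0.0250% of neutrophils. It was detected in 0.301% of T cells, or 0.148% without Reg1-MO 1. Clec9a (ENSMUSG00000046080, GRCm38 chr6:129408862-129424763, plus strand) overlaps Clec1b and Gm43914 on the same strand in GENCODE M21, so its UMIs may be shared with them. Xcr1 (ENSMUSG00000060509, chr9:123852315-123862029, minus strand) overlaps no annotated gene.

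The type 1 markers that were not part of the rule checked the label. UMIs were summed over the cells of a library and given as CPM (UMIs of a gene per 1000000 UMIs of that sum). Wdfy4 was at 1425 and 1317 CPM in the phagocyte-low members of the Reg1-MO libraries, against 1571 and 1433 CPM in those of the Ctrl libraries. In phagocyte-high members it was at 158 and 83.4 CPM against 91.1 and 65.7 CPM. The other phagocyte-marker cells, which were not members, held 53.7 and 59.3 CPM against 60.5 and 64.6 CPM. Every phagocyte-low value of Wdfy4 therefore lay above every phagocyte-high value.

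Itgae (chr11) and Flt3 separated in the same way. Itgae was at 523 and 415 CPM in phagocyte-low members of the Reg1-MO libraries and 468 and 372 CPM in those of the Ctrl libraries, against at most 30.6 CPM in the phagocyte-high members of any library. Flt3 was at 247 and 270 CPM against 260 and 292 CPM in phagocyte-low members, and at 16.4 and 2.35 CPM against 5.61 and 8.67 CPM in phagocyte-high members. Irf8 was at 1029 and 1040 CPM against 1013 and 846 CPM in phagocyte-low members and at 402 and 261 CPM against 292 and 154 CPM in phagocyte-high members, whose range overlapped that of the other phagocyte-marker cells (214 to 316 CPM).

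The marker lists gave the same split. The 23 genes of the type 1 identity list (Wdfy4, Itgae, Irf8, Batf3, Id2 and others, none of them a gate gene) summed to 7984 and 7330 CPM against 7548 and 7074 CPM in phagocyte-low members. They summed to 1936 and 1528 CPM against 1595 and 1354 CPM in phagocyte-high members, and to 1373 to 1451 CPM in the other phagocyte-marker cells. In phagocyte-high members the list was thus near its level in phagocytes outside the gate. The 19 phagocyte markers, which set the split, summed to 2333 to 2662 CPM in phagocyte-low members and 33964 to 57100 CPM in phagocyte-high members. Lyz2, the lysozyme of myeloid cells, was at 303 and 293 CPM against 321 and 380 CPM in phagocyte-low members, and at 12741 and 19656 CPM against 14290 and 28257 CPM in phagocyte-high members.

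**Figure D2:**
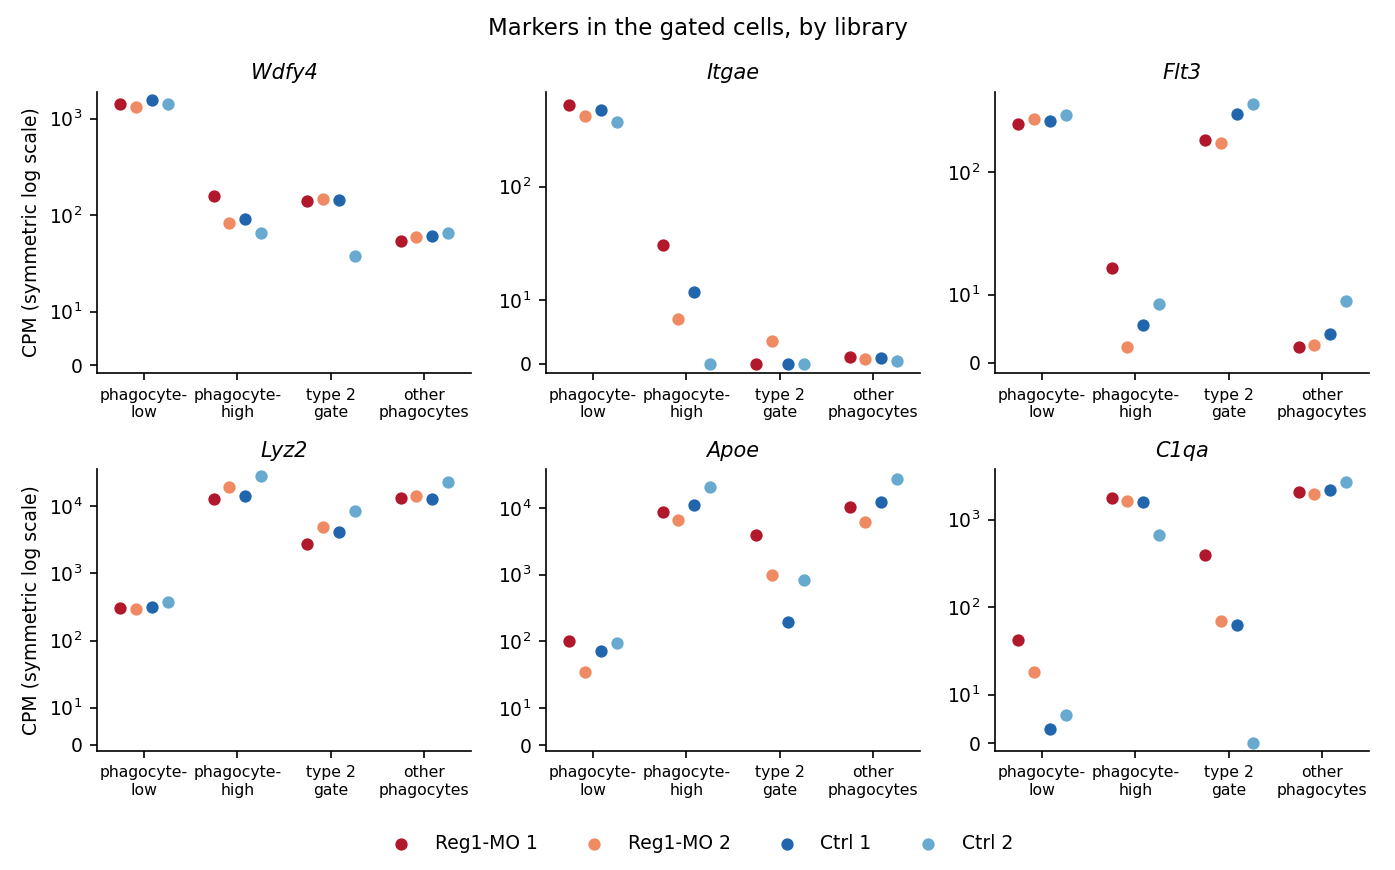
Points are the CPM of each library (symmetric log axis, linear below 10 CPM) in phagocyte-low members, phagocyte-high members, cells of the type 2 gate and the other phagocyte-marker cells. Wdfy4, Itgae and Flt3 are high in phagocyte-low members in all 4 libraries, while Lyz2, Apoe and C1qa, which belong to the list that made the split, are low there.

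Within the phagocyte-low members, 169 cells had Xcr1 and 75 had Clec9a UMIs alone, at medians of 20577 and 13530 UMIs. The type 1 identity list summed to 8917.4 and 8167.2 CPM against 8442 and 7128.7 CPM with Xcr1. Without it the sums were 4719.5 and 5673.4 CPM against 4798.5 and 6686.2 CPM, above the 1373 to 1451 CPM of the other phagocyte-marker cells. Single genes of the list differed in how far they were lower without Xcr1. Cadm1, an adhesion molecule of type 1 cells, was at 100.2 and 186 CPM in the Xcr1-detected cells of the Reg1-MO libraries, against 106 and 88.0 CPM in those of the Ctrl libraries. In the cells without Xcr1 it was at 1.54 and 3.65 CPM against 0 and 209 CPM. Itgae was at 618 and 438 CPM against 600 and 404 CPM with Xcr1, and at 191 and 368 CPM against 61.5 and 139 CPM without it. Cd209a, a lectin and the gate gene of the type 2 cells, was at 1.32 and 0 CPM against 0 and 0 CPM with Xcr1, and at 83.4 and 186 CPM against 18.5 and 23.2 CPM without it. Ccl5, a chemokine for T cells, was at 59.6 and 149 CPM against 30.0 and 6.52 CPM with Xcr1 and at 571 and 1302 CPM against 1027 and 882 CPM without it. The cells without Xcr1 were a sum of 3 cells in Ctrl 2, so their level there is the least certain.

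The share of gated cells was compared to ask whether Reg1-MO treatment went with more or fewer of them. Members made up 3.21% and 1.39% of retained cells in the Reg1-MO libraries, from 280 and 72 cells, against 1.09% and 0.694% in the Ctrl libraries, from 88 and 46 cells. The exact 95% binomial intervals, which cover counting error only, were 2.85% to 3.60% and 1.09% to 1.75% in the Reg1-MO libraries, and 0.874% to 1.34% and 0.508% to 0.924% in the Ctrl libraries. Both Reg1-MO values were above both Ctrl values, although the intervals of Reg1-MO 2 and Ctrl 1 overlapped. The difference of means was 1.41 percentage points (two-sided exact permutation test p = 0.333, the smallest that 2 against 2 libraries allow), and without Reg1-MO 1 it was 0.501 percentage points.

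The 2 kinds of member differed in this comparison. Phagocyte-low members were 1.80% and 0.735% of cells in the Reg1-MO libraries, against 0.396% and 0.256% in the Ctrl libraries, and did not overlap. Phagocyte-high members were 1.41% and 0.658% against 0.693% and 0.437%, and overlapped. Among the members themselves, 56.1% and 52.8% were phagocyte-low in the Reg1-MO libraries, against 36.4% and 37.0% in the Ctrl libraries. By UMIs, phagocyte-low members gave 39.3% and 49.0% of the members' sum, against 18.8% and 30.2%. Members with both gate genes detected, 179 cells, made up 1.35% and 0.445% against 0.297% and 0.211%.

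The neutrophil share moved with the group, so the members were also taken over non-neutrophils. They were then 3.40% and 1.74% in the Reg1-MO libraries, against 1.46% and 1.10% in the Ctrl libraries. Over members plus the cells of the type 2 gate described below, members were 91.5% and 81.8% against 87.1% and 83.6%, with overlap. The gate was also applied after thinning to 5000 UMIs, with cells of fewer UMIs left out of the members and of the total. Members were then 1.59% and 0.708% against 0.389% and 0.306%.

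**Figure D3:**
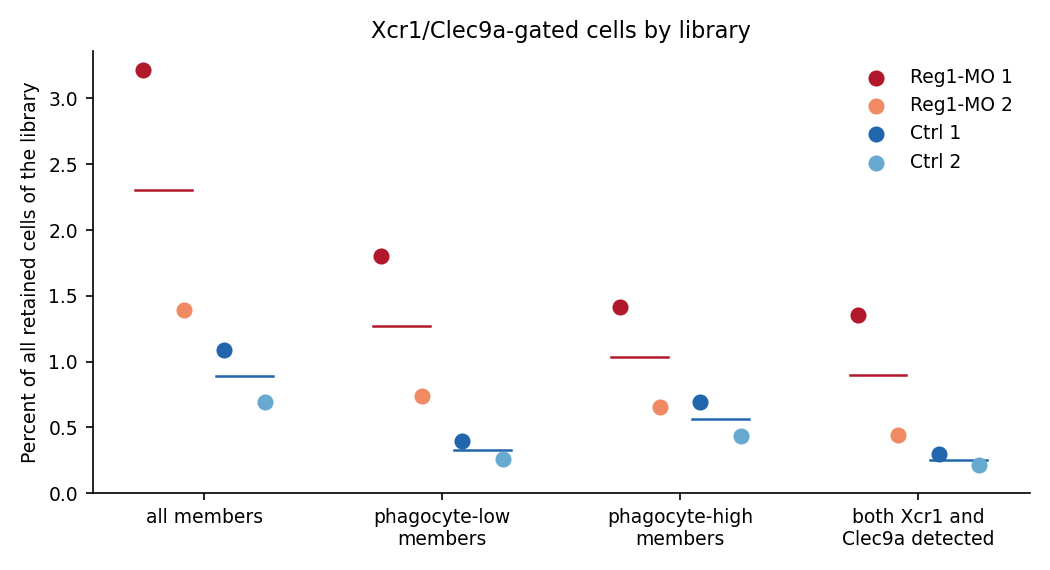
Points are the percent of all retained cells of each library that were members, phagocyte-low members, phagocyte-high members or members with both Xcr1 and Clec9a detected; lines are the means of 2 libraries. Reg1-MO 1 is the highest in every set, and Reg1-MO 2 lies above both Ctrl libraries in every set but the phagocyte-high members, where Ctrl 1 is higher.

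Proliferating cells overlapped between the groups. Members with at least 2 UMIs of Mki67 plus Top2a, genes of dividing cells, after thinning to 5000 UMIs made up 6.12% and 7.04% in the Reg1-MO libraries, against 6.82% and 4.35% in the Ctrl libraries. The difference was 1.00 percentage points (exact permutation test, two-sided p = 0.667), and it changed sign under several other choices. Without thinning the shares were 17.5% and 18.1% against 21.6% and 15.2%. In phagocyte-low members they were 8.33% and 13.2% against 12.5% and 11.8%.

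Expression in the summed members was compared between Reg1-MO and Ctrl libraries with edgeR's quasi-likelihood test over 9812 genes. Only 4 genes, 0.0408% of those tested, passed an adjusted p of 0.05: Hspa1a was higher (1 gene, 0.0102%), and Mmp8, Wfdc21 and Igkc were lower in Reg1-MO members (3 genes, 0.0306%). At an unadjusted p under 0.05 there were 1427 genes, or 14.5%. In simulated counts with 200 changed genes this test recovered 33% of 2-fold and 85% of 4-fold changes. It also called 13 genes that had not been changed. Both Reg1-MO values lay above both Ctrl values for 25.8% of all genes tested and below them for 24.2%, so non-overlap alone is no mark of a gene. The count moved with single libraries: it was 0 without Reg1-MO 1, 3 without Reg1-MO 2, 774 without Ctrl 1 and 295 without Ctrl 2. The median log2 fold change over all genes was -0.01.

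Hspa1a, an inducible HSP70 chaperone, was at 74.9 and 61.7 CPM in Reg1-MO members, against 13.1 and 10.4 CPM in Ctrl members. Both Reg1-MO values exceeded both Ctrl values, with a log2 fold change of 2.48 ± 0.22 (SE; edgeR adjusted p = 0.0404). Its near-identical copy Hspa1b had a log2 fold change of 2.64 ± 0.34 and an adjusted p of 0.106 in edgeR, and how the authors' counting divided reads between the copies is not known, so the pair is uncertain gene by gene; Hspa1b was added after its value was seen. By kind of member, Hspa1a was at 132 and 93.0 CPM against 36.2 and 20.02 CPM in phagocyte-low members and 37.7 and 31.7 CPM against 7.71 and 6.20 CPM in phagocyte-high members. Outside the members, all retained cells held 40.8 and 91.4 CPM against 12.8 and 23.1 CPM, and the other phagocyte-marker cells 38.1 and 63.2 CPM against 9.32 and 21.5 CPM. Hspa1a passed in neither kind alone (edgeR adjusted p = 0.206 in phagocyte-low and 0.0856 in phagocyte-high members). It also did not pass with both gate genes required (0.313), without cells over 2 C1q UMIs (0.131) or without Reg1-MO 1 (0.272). Of the 15 genes of the heat shock and immediate early list, Hspa1a alone passed, 7 fold changes were above 0 and 8 below, with a median of -0.04.

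Of the 3 lower genes, 2 are known from myeloid cells and 1 from B cells. Mmp8, a neutrophil collagenase, was at 36.5 and 29.4 CPM in Reg1-MO members against 213 and 283 CPM in Ctrl members (log2 fold change -2.90 ± 0.23, edgeR adjusted p = 0.0385). Wfdc21, a small secreted protein of myeloid cells, was at 12.8 and 14.4 CPM against 66.0 and 77.8 CPM (-2.44 ± 0.20, edgeR adjusted p = 0.0385). Igkc, the immunoglobulin kappa constant chain, lay outside the naming rule and was at 0.269 and 0.599 CPM against 19.6 and 20.7 CPM (-5.78 ± 0.46, edgeR adjusted p = 0.0385), on 2 and 1 UMIs in the Reg1-MO members. All 3 lost the call without Reg1-MO 1, and Mmp8 and Wfdc21 also lost it without Reg1-MO 2 (both at an adjusted p of 0.0539). Without cells over 2 C1q UMIs none of the 3 passed, and Wfdc21 had a log2 fold change of -0.195 there (edgeR adjusted p = 0.897), against an adjusted p of 0.0636 for Mmp8 and 0.0535 for Igkc. Wfdc21 did not pass with doublets removed (0.0936), and neither Wfdc21 (0.142) nor Igkc (0.142) passed in phagocyte-high members alone. DESeq2 gave Igkc no adjusted p.

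Mmp8 and Wfdc21 were at higher levels in phagocyte-high than in phagocyte-low members of every library. Mmp8 was at 51.2 and 56.4 CPM against 261 and 405 CPM there, and at 13.7 and 1.22 CPM against 6.04 and 0 CPM in phagocyte-low members. The 13 neutrophil markers, none of them at 0 in the members' sums, summed to 565 and 417 CPM in Reg1-MO members and 1581 and 1422 CPM in Ctrl members. All 13 had a fold change below 0, with a median of -1.60, and Mmp8 alone passed. In phagocyte-low members the median lay on the other side of 0, at 1.275, over only those of the 13 that passed the low-count filter there. In those members 6 of the 13 genes were at 0 in at least 1 library. The list summed to 620 and 279 CPM against 317 and 206 CPM there, with overlap. The same list was at 439 and 620 CPM against 1881 and 1608 CPM in the other phagocyte-marker cells. The part of neutrophil RNA in these differences was not tested.

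Of the next genes by p, none passed. Among the higher ones, Zfp366 (DC-SCRIPT, a nuclear factor of dendritic cells) was at 83.7 and 67.1 CPM in Reg1-MO members against 20.8 and 17.3 CPM in Ctrl members (log2 fold change 1.95 ± 0.21, edgeR adjusted p = 0.0587). Zbtb46, a transcription factor of conventional dendritic cells, was at 38.1 and 45.5 CPM against 11.7 and 9.51 CPM (1.89 ± 0.23, edgeR adjusted p = 0.0889). Serpinb9, an inhibitor of granzyme B, was at 47.8 and 68.3 CPM against 9.96 and 5.19 CPM. Ffar4, a fatty acid receptor, and Herpud1, a gene of the endoplasmic reticulum stress response, had log2 fold changes of 1.82 ± 0.19 and 1.198 ± 0.157. All 5 were lower in phagocyte-high members than in phagocyte-low members of the same library. Within phagocyte-low members Serpinb9 was at 103 and 133 CPM against 28.7 and 8.58 CPM, Zfp366 at 183 and 131 CPM against 103 and 57.2 CPM, and Zbtb46 at 86.1 and 86.9 CPM against 48.3 and 28.6 CPM.

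Among the lower ones that did not pass, Chil3, a chitinase-like protein of myeloid cells, was at 847 and 445 CPM against 5984 and 7008 CPM (log2 fold change -3.35 ± 0.33, edgeR adjusted p = 0.0506). Nearly all of it came from phagocyte-high members, which held 1334 and 830 CPM against 7362 and 10035 CPM, while phagocyte-low members held 92.3 and 42.8 CPM against 48.3 and 22.9 CPM. Saa3, an acute phase protein, was at 125 and 176 CPM against 482 and 660 CPM, and at 5.72 CPM or less in phagocyte-low members. Clec4a2, a lectin receptor, and Retnlg, a resistin-like neutrophil gene, had log2 fold changes of -1.45 ± 0.18 and -3.04 ± 0.43.

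**Figure D4:**
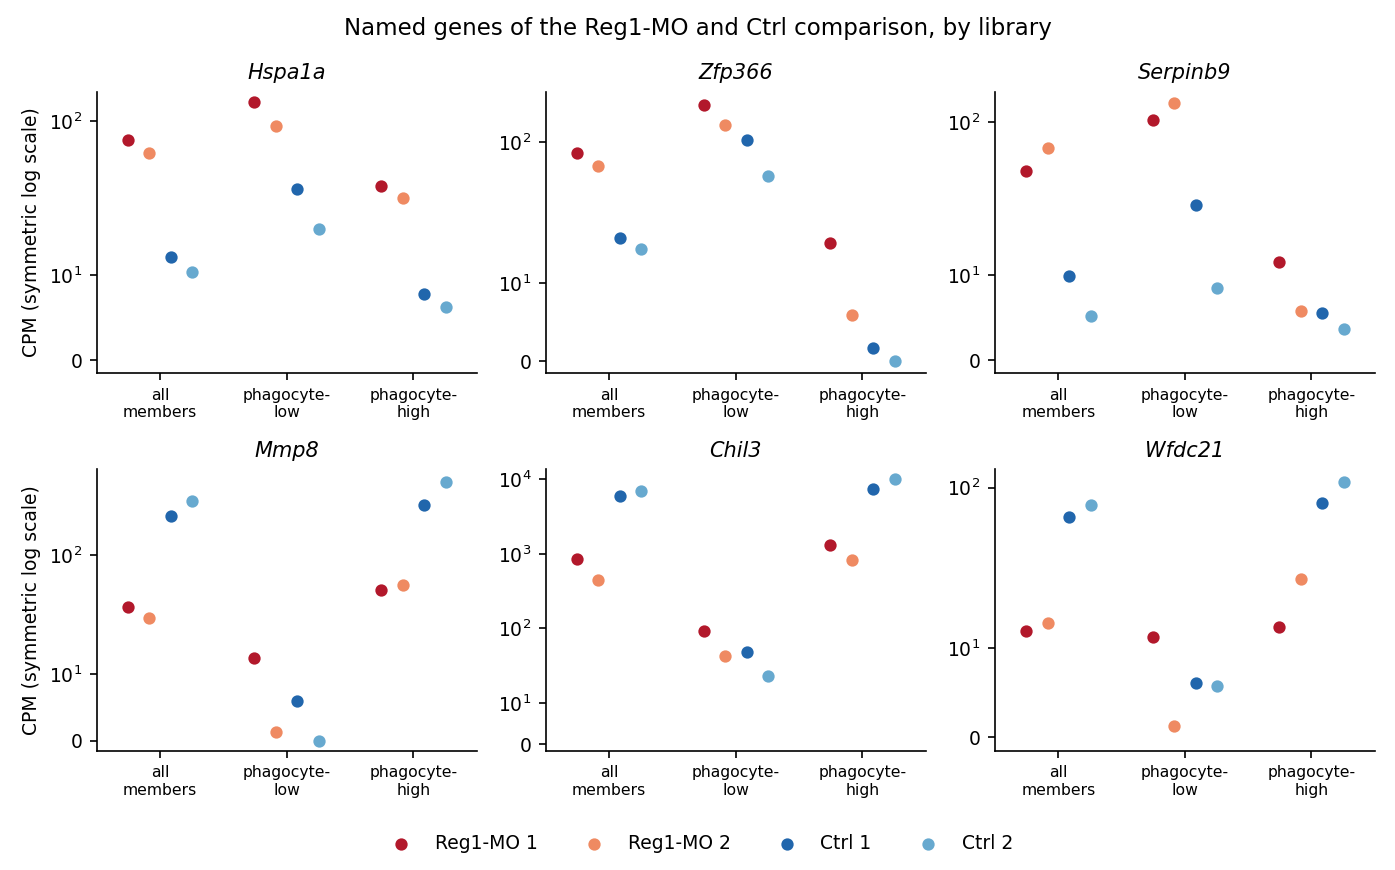
Points are the CPM of each library (symmetric log axis, linear below 10 CPM) in all members, phagocyte-low members and phagocyte-high members. Hspa1a separates the groups in each set, whereas Mmp8, Chil3 and Wfdc21 separate them in all members and in phagocyte-high members but not in phagocyte-low members.

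The type 1 identity genes differed less within phagocyte-low members than over all members. None of the 22 tested passed, 17 had a fold change above 0, and the median was 0.66. Summed, the list stood at 4311 and 4369 CPM in Reg1-MO members against 2717 and 3084 CPM in Ctrl members. Wdfy4 was at 655 and 687 CPM against 370 and 479 CPM (log2 fold change 0.64 ± 0.18, edgeR adjusted p = 0.230). In phagocyte-low members alone the median of the same list, over its genes tested there, was 0.09 and the groups' levels of Wdfy4 overlapped. Itgae (1.02 ± 0.17), Irf8 (0.68 ± 0.15), Batf3 (1.15 ± 0.31), Id2 (0.39 ± 0.18) and Flt3 (0.72 ± 0.29) had log2 fold changes above 0 in all members without passing. The phagocyte markers, 19 of 19 measured and none at 0, summed to 21615 and 20875 CPM against 31281 and 40542 CPM.

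The other lists held no further call. Of 22 tested genes of maturation and migration 18 had a fold change above 0 (median 0.84 in all members, 0.53 over those also tested in phagocyte-low members). Cd83, a surface marker of mature dendritic cells, was at 423 and 504 CPM against 241 and 223 CPM in all members and at 727 and 770 CPM against 690 and 595 CPM in phagocyte-low members. Cd86, a costimulatory ligand, was at 891 and 809 CPM against 902 and 973 CPM. Of 19 interferon-gamma response genes 18 were above 0 (medians 0.71 and 0.67). The list summed to 3590 and 2809 CPM against 2622 and 520 CPM, so that Ctrl 2 was far below the other libraries. Cxcl9, a chemokine for T cells induced by interferon-gamma, was at 739 and 587 CPM against 288 and 81.3 CPM. Ctrl 2 was the lowest library for it.

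Ctrl 2 was also the low library in glycolysis and hypoxia, where 19 of 20 genes were above 0 (medians 0.43 and 0.62) and the sums were 10798 and 10461 CPM against 9943 and 5901 CPM. NF-kB and its feedback genes were above 0 for 18 of 21 (medians 0.62 and 0.71); Nfkbia, the inhibitor IkB-alpha, was at 523 and 518 CPM against 410 and 170 CPM. Class I presentation genes were above 0 for 17 of 20 (medians 0.49 and 0.42) and class II presentation genes for 10 of 12 (medians 0.54 and 0.05). The second value of each pair is the median in phagocyte-low members, over the genes of the list that were also tested there.

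Zc3h12a, the gene of Regnase-1 (ENSMUSG00000042677, chr4:125118423-125127840, minus strand), was at 40.4 and 45.5 CPM in Reg1-MO members against 46.1 and 38.9 CPM in Ctrl members (log2 fold change -0.04 ± 0.18, edgeR adjusted p = 0.957). The groups overlapped, and the sign changed with several of the choices tried. A morpholino can act without lowering the RNA of its target, so these values do not check the labels. Of 16 tested genes reported as Regnase-1 targets none passed and 11 were above 0 (median 0.48). Il1b, the inflammatory cytokine interleukin-1 beta, was at 2134 and 2667 CPM against 1708 and 1394 CPM (0.61 ± 0.18, edgeR adjusted p = 0.231). Cxcl2, a neutrophil chemokine, was at 650 and 998 CPM against 914 and 963 CPM. Of lymphocyte markers, the T cell list, which the rule limits through Cd3e, summed to 90.4 and 75.5 CPM against 110 and 103 CPM and the NK cell list to 19.9 and 1.80 CPM against 3.41 and 1.73 CPM. The B lineage list summed to 38.9 and 46.1 CPM against 68.5 and 119 CPM, and all 4 of its tested genes were below 0 (median -3.65), with Igkc called. The part of B lineage RNA in the Igkc difference was not tested. Among the other lists, RNA decay factors had a median of -0.04, type I interferon response 0.50 (sums of 2210 and 2204 CPM against 2221 and 681 CPM, so that Ctrl 2 alone was low), pattern recognition 0.12, dendritic cell cytokines and chemokines 0.28, costimulation and coinhibition 0.23 and cell cycle 0.13.

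Members were then compared with type 2 cells of the same libraries to see what set them apart. The type 2 gate took cells with at least 2 UMIs of Cd209a, at least 1 of Flt3, no Xcr1 or Clec9a and the other conditions of the members. These are called type 2 cells after their gate. The gate held 26 and 16 cells in the Reg1-MO libraries and 13 and 9 cells in the Ctrl libraries. By the same 1% limit, 22 and 9 of them were phagocyte-low in the Reg1-MO libraries and 10 and 4 in the Ctrl libraries. Ctrl 2 stood apart in this gate. Class II genes summed to 23679 and 24101 CPM against 22703 and 12774 CPM, and cell cycle genes to 784 and 684 CPM against 744 and 3564 CPM. With the library as a block, 828 of 7897 genes passed in edgeR (10.5%), 419 higher in members (5.31%) and 409 lower (5.18%). In simulated counts with 200 changed genes this test recovered 34% of 2-fold and 83% of 4-fold changes. It also called 16 genes that had not been changed. Genes of either gate were fitted and adjusted with the others, and left out of the 7897 genes and of the numbers that passed.

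The type 1 identity list was higher in members. Of 21 tested genes 14 passed as higher in members and none as lower. The median log2 fold change was 2.08 against 0.04 over all genes. Itgae was at 224 and 207 CPM in the Reg1-MO members and 97.8 and 112 CPM in the Ctrl members, against 0, 3.62, 0 and 0 CPM in the type 2 cells of the same libraries (log2 fold change 7.22 ± 0.54, edgeR adjusted p = 5.09e-05). The type 2 cells held 1 UMI of Itgae in all, so the size of that fold change is uncertain. Cd24a, a surface glycoprotein, was higher by 3.81 ± 0.31 on the log2 scale, Snx22, a sorting nexin, by 5.20 ± 0.69 and Wdfy4 by 2.20 ± 0.29. Irf8 was higher by 1.35 ± 0.22. Batf3 did not pass (1.31 ± 0.39, edgeR adjusted p = 0.0617). Tlr3, the receptor for double-stranded RNA, was higher by 4.60 ± 0.77.

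Genes without a single UMI in the 64 type 2 cells have lower bounds in place of a fold change, taken over all cells of a gate against 3 UMIs in the type 2 sum. Ccser1 was at 75.2 CPM in members, at least 22.3-fold higher (edgeR adjusted p = 0.00153). Clnk, an adaptor of immune receptor signalling, was at 56.1 CPM, at least 16.6-fold higher (edgeR adjusted p = 0.00224). Il12b, the p40 chain of interleukin-12 and interleukin-23, was at 40.5 CPM, at least 12.0-fold higher (edgeR adjusted p = 0.00431). Il12b was at 48.8, 49.7 and 31.3 CPM in 3 libraries and at 1.73 CPM in Ctrl 2.

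The genes higher in members fell into 2 sets by which members carried them. Ccser1, Clnk, Itgae and Plet1, a surface protein, were carried by phagocyte-low members: Plet1 was at 386 and 417 CPM against 377 and 129 CPM there, and at 24.2 CPM or less in phagocyte-high members. The other 8 of the 12 named genes were carried by phagocyte-high members. Nos2, the inducible nitric oxide synthase, was at 225 and 167 CPM in Reg1-MO members and 283 and 43.2 CPM in Ctrl members, against 0, 3.62, 0 and 0 CPM in type 2 cells (7.33 ± 0.55, edgeR adjusted p = 5.09e-05). The type 2 cells held 1 UMI of Nos2 in all, so the size of that fold change is uncertain. In phagocyte-low members Nos2 was at 55.8 CPM or less. Arg1, the arginase of alternatively activated macrophages and 1 of the 19 phagocyte markers, was at 1682 and 2039 CPM against 2156 and 774 CPM in phagocyte-high members and at 53.9 CPM or less in phagocyte-low members (4.52 ± 0.59 in all members). Inhba, a subunit of activin, had a log2 fold change of 6.72 ± 0.49, Mmp12, macrophage elastase, 6.23 ± 0.59, Tnfaip6, a hyaluronan-binding protein, 6.05 ± 0.65 and Saa3 5.60 ± 0.42. Gpnmb, a glycoprotein of lipid-handling macrophages, and Pld3, a lysosomal nuclease, had 4.87 ± 0.55 and 4.79 ± 0.59.

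Most phagocyte and neutrophil markers were also higher in members. Of the 19 phagocyte markers 11 passed as higher and 1 as lower in members than in type 2 cells. The 19 summed to 21615 and 20875 CPM in Reg1-MO members and 31281 and 40542 CPM in Ctrl members, against 11640, 11314, 8001 and 12886 CPM in type 2 cells. Lyz2 was higher by 1.33 ± 0.10 and C1qa, a complement chain, by 3.20 ± 0.52, while Ccr2, the chemokine receptor of monocytes, was lower (-2.12 ± 0.32, edgeR adjusted p = 0.00264). In phagocyte-low members Lyz2 was at 293 to 380 CPM, under the 2730 to 8516 CPM of type 2 cells. Of 12 tested neutrophil markers 9 passed as higher and 1 as lower (median 3.01, or 2.81 with genes at 0 in type 2 cells at their bound). Of 20 glycolysis and hypoxia genes 12 passed as higher and none as lower. Of 7 tested microglia markers 6 passed as higher. But the sum of that list was highest in phagocyte-low members, where nearly all of it was Cst3 (22471 to 24448 CPM, against 2994 to 4467 CPM in phagocyte-high members and 3742 to 3981 CPM in type 2 cells). Mif, a cytokine, was higher by 1.67 ± 0.23 and the glycolytic enzymes Tpi1 and Aldoa by 1.66 ± 0.27 and 1.28 ± 0.19, and each was at a lower level in phagocyte-low than in phagocyte-high members of every library.

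Among the lower genes were lectins and surface proteins of type 2 cells. Cd7, an immunoglobulin-family receptor, was at 6.33 and 2.997 CPM in Reg1-MO members and 2.56 and 6.05 CPM in Ctrl members, against 271, 213, 108 and 300 CPM in type 2 cells (log2 fold change -5.57 ± 0.25, edgeR adjusted p = 3.49e-06). The lectins Clec10a (-4.14 ± 0.30), Mgl2 (-4.39 ± 0.68), Cd209d (-4.88 ± 0.41) and Clec4b1 (-5.45 ± 0.53) were lower, and so was Selp, P-selectin (-5.83 ± 0.60). Cd209d is a close relative of the gate gene Cd209a. Tnfsf9, the ligand of 4-1BB on T cells, was at 19.9 and 12.0 CPM in Reg1-MO members and 10.5 and 18.2 CPM in Ctrl members, against 237, 181, 335 and 403 CPM in type 2 cells (-4.19 ± 0.27). Tnip3, a binding partner of the NF-kB inhibitor A20, had -3.60 ± 0.45 and Hpgd, which degrades prostaglandins, -3.89 ± 0.52. Stxbp6 (-4.99 ± 0.48), Ank (-3.43 ± 0.47) and Tmem176b (-3.39 ± 0.24) completed the 12 named genes. Each of these 12 was low in both kinds of member, at 82.2 CPM or less.

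**Figure D5:**
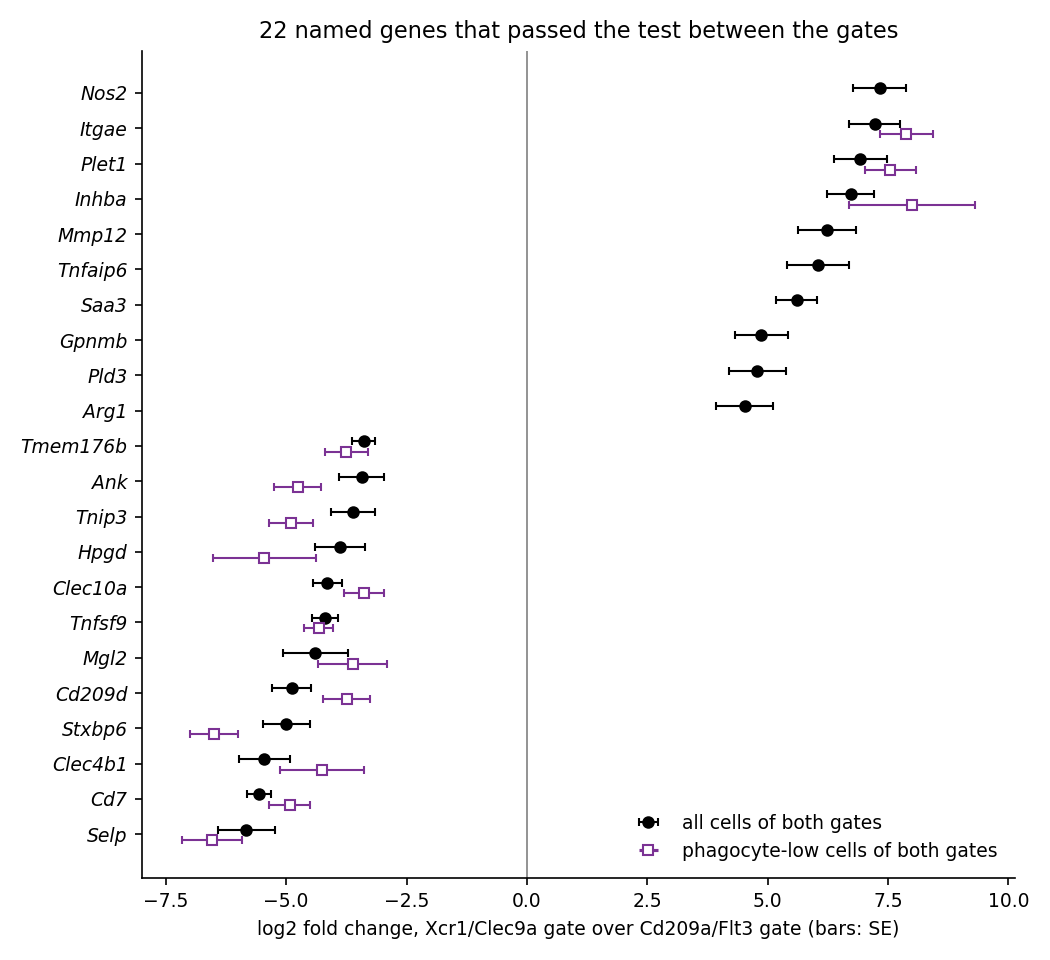
Log2 fold changes with their SE from edgeR for 22 of the 24 named genes, Xcr1/Clec9a gate over Cd209a/Flt3 gate, over all cells (filled circles) and over phagocyte-low cells of both gates (open squares, absent where the low-count filter removed the gene). Nos2, Mmp12, Tnfaip6, Saa3, Gpnmb, Pld3 and Arg1 have no open square, while the genes lower in members keep a negative value in both.

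Of the 11 tested genes of the type 2 list 5 passed as lower and none as higher. Irf4, a transcription factor of type 2 cells, was lower (-3.53 ± 0.72, edgeR adjusted p = 0.0108) and Cd300a, an inhibitory receptor, was lower too (-1.91 ± 0.21). Of 8 tested pan conventional dendritic cell genes 3 passed, all as lower. They were Bcl11a (-2.66 ± 0.28), a lymphoid and dendritic cell transcription factor, Kmo (-1.63 ± 0.25), an enzyme of the kynurenine pathway, and Cbfa2t3 (-0.87 ± 0.24), a transcriptional corepressor. Kmo and Cbfa2t3 overlapped between phagocyte-low members and type 2 cells, with Kmo at 162 and 149 CPM in the Reg1-MO libraries and 142 and 106 CPM in the Ctrl libraries, against 192, 170, 159 and 122 CPM in type 2 cells.

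The remaining lists were divided. Ccl5 was higher by 2.71 ± 0.47 and Havcr2, the receptor Tim-3, by 1.24 ± 0.31; Havcr2 was at 213 and 230 CPM against 241 and 355 CPM in phagocyte-low members and 91.8 and 29.4 CPM against 79.9 and 42.1 CPM in phagocyte-high members. Cd40, the receptor for T cell help, was lower (-1.47 ± 0.35, edgeR adjusted p = 0.0242) and Ctrl 2 was low for it in both gates, at 4.32 CPM in members and 0 CPM in type 2 cells. Of 22 tested maturation and migration genes 3 passed as higher and 5 as lower, among them Anxa3 (2.11 ± 0.36) and Il4i1 (-3.99 ± 0.65), an amino acid oxidase of mature dendritic cells. Zc3h12c, a relative of Zc3h12a, was the 1 RNA decay factor of 11 that passed, at 37.1 and 45.5 CPM in Reg1-MO members and 43.8 and 43.2 CPM in Ctrl members, against 15.2, 18.1, 11.4 and 0 CPM in type 2 cells (1.66 ± 0.43, edgeR adjusted p = 0.0326). No gene of the interferon lists passed.

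Whether the treatment difference itself differed between members and type 2 cells was tested as an interaction. In edgeR 3 of 7897 genes passed (0.038%), Chil3, Apoe and Fth1, all with a more negative difference in members. A further look at unadjusted p under 0.05 gave 523 genes. In simulated counts with 200 changed genes this test recovered 0% of 2-fold and 5% of 4-fold changes. A gene that was not called may therefore still differ. The type 2 sums of the Ctrl libraries rest on 13 and 9 cells.

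The migratory gate took cells with at least 20 UMIs of Cd74, no Cd3e, and both Ccr7 and Fscn1 at 3 UMIs or more. It set no limit on Siglech, S100a8 or S100a9. The gate had 37 and 35 cells in the Reg1-MO libraries and 11 and 5 cells in the Ctrl libraries. Its phagocyte markers summed to 13299 and 3445 CPM against 20429 and 46791 CPM, and its neutrophil markers to 727 and 1275 CPM against 1939 and 9262 CPM. The part of such RNA in the levels below was not tested. Ccr7 guides dendritic cells to lymph nodes, and migratory cells can come from either lineage. Their Wdfy4 was at 41.2 and 10.7 CPM against 18.95 and 9.83 CPM, and Itgae at 3.30 and 0 CPM against 0 and 0 CPM, below every phagocyte-low value. Batf3 was at 188 and 246 CPM against 164 and 157 CPM, inside or above the 128 to 178 CPM of phagocyte-low members. Irf8 was at 868 and 1100 CPM against 543 and 216 CPM. Il4i1 was at 470 and 553 CPM against 250 and 334 CPM, while phagocyte-low members held 8.57 CPM or less.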

How the data were processed

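The 4 libraries were droplet single-cell libraries of sorted CD45+ spinal cord cells. The deposited values are raw UMI counts per gene and cell; their headers record Cell Ranger 5.0.1, and the submitters' processing notes also name Seurat 4.0 and mm10. Cells were retained from 500 UMIs and 200 genes upward if mitochondrial transcripts did not exceed 10%. Doublets were marked with scanpy's Scrublet (scanpy 1.11.5) and removed only as an alternative. The members and all gene lists were chosen with earlier results of these data known.

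Counts were summed over a gate's cells in each library and tested with edgeR 4.0.16 (quasi-likelihood, TMM, low-count filter at 10 counts, Benjamini-Hochberg adjustment over all genes tested, threshold 0.05), tested on simulated data. The groups were unblocked. Members against type 2 cells had the library as a block. Each SE was the absolute log2 fold change divided by the square root of edgeR's F statistic. Gate genes stayed in the fits and the adjustment and were left out of the counts of genes. Named genes were up to 12 called per direction (or 6 by p where fewer passed) above a CPM minimum, and list members ranked by p; not all are printed. Shares were compared by exact permutation over libraries. Thinning drew 5000 UMIs per cell and left out cells with fewer. Deviations of same-numbered libraries correlated at 0.0569 over 9819 genes, which alone cannot exclude a shared batch. The labels state no pairing, so the main fit did not pair libraries by replicate number. DESeq2 1.42.0, RLE scaling, no filter, other gates and each library left out were alternatives. No sequences are shown, and the results of 2 genes are not reported here. Gene positions are from GENCODE M21 (GRCm38).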

Additional observations from a re-analysis of the deposited data

Results flagged for a closer look

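Chil3, Apoe and Fth1 were picked out because the difference between Reg1-MO and Ctrl libraries itself differed between Xcr1/Clec9a-gated cells and type 2 cells in a test of that difference (edgeR interaction term). For Chil3 the difference was -7.41 ± 0.89 on the log2 scale (edgeR adjusted p = 0.0359): members were at 847 and 445 CPM in Reg1-MO and 5984 and 7008 CPM in Ctrl libraries, and type 2 cells at 170 and 593 CPM in Reg1-MO and 11.4 and 37.5 CPM in Ctrl libraries. For Apoe, a lipid carrier of phagocytes, it was -3.78 ± 0.47 (edgeR adjusted p = 0.0359), with members at 5398 and 3408 CPM against 9081 and 14447 CPM and type 2 cells at 3992 and 984 CPM against 193 and 825 CPM. For Fth1, the ferritin heavy chain, it was -1.49 ± 0.19 (edgeR adjusted p = 0.0369), with members at 22180 and 22978 CPM against 26684 and 21434 CPM and type 2 cells at 7521 and 9668 CPM against 4412 and 2626 CPM. The Chil3 values of type 2 cells rest on 2 UMIs in Ctrl 1 and 4 UMIs in Ctrl 2. None of the 3 genes passed when phagocyte-low cells of both gates were compared, where edgeR called no gene and 187 had an unadjusted p under 0.05.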

How the results depend on the processing

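For the share of members, the groups overlapped over members plus type 2 cells and for phagocyte-high members alone. The difference of mean shares kept its direction in every alternative run. The difference in cycling members did not: it was -5.05 percentage points for members with both gate genes, -0.307 without cells over 2 C1q UMIs, -0.626 without thinning, -1.39 in phagocyte-low and -0.146 in phagocyte-high members, and -0.240 to 2.23 with 1 library left out. The 4 genes called between Reg1-MO and Ctrl members became 0 with both gate genes (580 at an unadjusted p under 0.05), 1 without C1q cells, 0 in phagocyte-low members (799 unadjusted), 124 in DESeq2, 759 with no low-count filter, and 0 to 774 with 1 library left out. With the replicate number as a block it was 467, but the labels state no pairing by replicate number. Calls of members over type 2 cells, 828, ranged from 367 to 728 with 1 library left out. Among phagocyte-low cells of both gates 700 of 5385 tested genes passed, and 345 of these were among the 828. Interaction calls, 3, were 8 in DESeq2, 6 with RLE scaling, 87 with no filter, 21 without Flt3 in the type 2 gate, 6 without doublets, 0 in phagocyte-low cells, and 39 to 131 with 1 library left out. The causes were not tested.

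Some genes changed sign. With both gate genes and in phagocyte-low members, Retnlg was 0.67 and 0.40, Wdfy4 -0.0025 and -0.15, Flt3 -0.0855 and -0.11, Zc3h12a 0.73 and 0.24, and Cxcl2 2.11 and 2.37. Chil3 was 0.90 in phagocyte-low members. Zc3h12a was 0.11 and Cxcl2 0.20 in phagocyte-high members, and with 1 library left out they ran from -0.13 to 0.0849 and from -0.54 to 0.0622. Among phagocyte-low cells of both gates, members over type 2 cells, Lyz2 was -1.28, C1qa -0.97, Ctss -0.52, Lgmn -0.78, Ccl6 -1.51, Cbfa2t3 0.19 and H2-DMb1 0.13. The phagocyte-low and phagocyte-high settings were chosen after seeing the data. With 2 libraries a group no share can pass p 0.05, and the 64 type 2 cells limit that comparison.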
